A study of Rattus norvegicus with 232 samples.

Results

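The genes described here encode 5 subunits of the GABA-A receptor: the beta subunits Gabrb1 and Gabrb2, the gamma subunits Gabrg1 and Gabrg3, and the delta subunit Gabrd. They were chosen by name, all 5 were found among the 20859 genes of the deposited brain gene table quantified on RefSeq models, and no filter on low values removed any of them. Other beta and gamma subunits are not analysed here. GABA-A receptors are chloride channels built from a ring of subunits, and they carry most of the fast inhibition in the brain. Alpha and beta subunits together form the site where GABA binds, a gamma subunit is needed for the benzodiazepine site and for clustering at synapses, and a delta subunit takes the place of gamma in receptors outside the synapse that carry tonic inhibition. The delta subunit is known from granule cells of the cerebellum and dentate gyrus and from the thalamus, where it pairs with particular alpha subunits.

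The samples came from the Hybrid Rat Diversity Panel, a set of inbred rat strains kept for genetic studies. RNA was taken from whole brain as the labels give it, or from one side of a brain split along the midline in the study's methods, of rats that were untreated and had met neither alcohol, drugs nor behavioural tests. The animals were male where the labels give the sex, the labels give no age, and the study's methods describe young adults for the strains they cover. The gene table held 214 libraries from 197 animals of 74 strains, of which 54 strains had 3 animals, 15 had 2 and 5 had 1. The HXB/BXH recombinant inbred strains (30 strains, 88 animals) descend from BN-Lx/Cub, a Brown Norway congenic strain, and SHR/OlaIpcv, a spontaneously hypertensive strain. The FXLE/LEXF recombinant inbred strains (19 strains, 43 animals) descend from F344/Stm and LE/Stm, and the remaining 25 strains (66 animals) were classic inbred strains, the 4 parents included. Strains of a recombinant panel share their parents, so strains are not independent draws from a population.

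Gabrb1 is on the minus strand of chromosome 14 (rn6, chr14:38579114-39188326, the widest feature that carries its name) and Gabrg1 on the plus strand of the same chromosome (chr14:39906922-40061831). Gabrb2 is on chromosome 10 (chr10:27960866-28252033, plus strand), Gabrg3 on chromosome 1 (chr1:112158519-112812462, minus strand) and Gabrd on chromosome 5 (chr5:172770568-172809353, minus strand). Promoters are shown first, each as the 250 bases before and the 50 after the start that RefSeq annotates on GRCr8. They are reference sequences and not those of the single strains, and their part in the levels described below was not tested. The windows printed are chr14:36902844-36903143 (minus strand) for Gabrb1, chr10:27439543-27439842 (plus strand) for Gabrb2, chr14:37750042-37750341 (plus strand) for Gabrg1 and chr5:171252660-171252959 (minus strand) for Gabrd. Capitals mark the runs of 10 or more bases that Gabrb1 and Gabrb2 share on the same strand, and in Gabrg1 and Gabrd the matches to the short motifs named after the sequences.
Gabrb1: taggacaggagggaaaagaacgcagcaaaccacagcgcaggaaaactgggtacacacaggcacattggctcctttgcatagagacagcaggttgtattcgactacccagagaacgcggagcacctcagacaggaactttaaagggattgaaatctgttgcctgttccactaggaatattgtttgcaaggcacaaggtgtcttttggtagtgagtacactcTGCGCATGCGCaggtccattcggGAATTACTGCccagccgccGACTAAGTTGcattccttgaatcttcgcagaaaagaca
Gabrb2: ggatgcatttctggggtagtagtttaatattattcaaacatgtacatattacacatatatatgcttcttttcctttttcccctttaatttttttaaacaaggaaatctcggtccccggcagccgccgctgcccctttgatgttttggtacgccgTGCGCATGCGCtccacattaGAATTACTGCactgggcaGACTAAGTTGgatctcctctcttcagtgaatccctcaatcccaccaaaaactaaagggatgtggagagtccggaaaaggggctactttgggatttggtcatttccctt
Gabrg1: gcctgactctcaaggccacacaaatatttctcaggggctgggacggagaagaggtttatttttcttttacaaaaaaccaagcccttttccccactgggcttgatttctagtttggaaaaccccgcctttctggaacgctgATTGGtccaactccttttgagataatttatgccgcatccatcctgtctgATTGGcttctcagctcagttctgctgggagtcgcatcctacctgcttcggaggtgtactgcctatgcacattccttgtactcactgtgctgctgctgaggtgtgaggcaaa
Gabrd: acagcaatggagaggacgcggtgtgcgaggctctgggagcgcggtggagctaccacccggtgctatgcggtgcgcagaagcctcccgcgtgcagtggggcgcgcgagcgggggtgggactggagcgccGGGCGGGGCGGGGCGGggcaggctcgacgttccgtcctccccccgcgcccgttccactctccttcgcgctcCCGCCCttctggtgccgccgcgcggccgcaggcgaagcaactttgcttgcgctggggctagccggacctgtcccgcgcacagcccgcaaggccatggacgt
The beta subunit promoters shared 3 runs of 10 or more bases on the same strand, in the same order. The first, TGCGCATGCGC, was found on either strand in 0.598% of the 33469 promoter windows of the same length, the second, GAATTACTGC, in 0.0388%, and the third, GACTAAGTTG, in 0.0149%. They began at positions -30, -7 and 12 of Gabrb1 and at -96, -76 and -58 of Gabrb2, where 0 is the annotated start. The first run holds CGCATGCG, the core of the palindrome bound by NRF1, which was present in 1.66% of all windows on either strand and in neither gamma promoter nor that of Gabrd. Gabrd held 4 matches to the GC box GGGCGG on either strand, overlapping in part, and Gabrg3 held 2, against 33.1% of all windows with at least 1. Gabrg1 held 2 matches to ATTGG, the reversed CCAAT box, and Gabrb1 held 1, against 37.5% of windows. TATAAA was found in none of the 5 windows and in 14.2% of all. The windows of Gabrg3 and Gabrd were rich in G and C (76.7% and 73.7%, against a median of 51.7%), whereas those of Gabrb1, Gabrb2 and Gabrg1 had 49.3%, 44.0% and 48.7%. Gabrb1 also shared runs of 10 bases with the opposite strand of Gabrg1, TCAGACAGGA (0.143% of windows) and AGTGAGTACA (0.0837%). It shared GACAGCAGGT (0.137%) with the opposite strand of Gabrg3. The runs were found by searching the pairs of these genes, and how many other promoter pairs share such runs was not counted. A match to letters is a description of the sequence and was not tested as a binding site.

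Levels are given on the deposited log2 scale, which is not divided by transcript length, so levels of different genes are not compared. The libraries had medians over all genes between 8.18 and 8.42, and with no counts in the tables the depth of each library is unknown. Neuronal markers were high in every animal (mean of 4 genes between 14.17 and 14.61) and so were oligodendrocyte markers (14.97 to 15.91). Over the 52 genes with the strongest strain differences, 190 of 192 animals matched their own strain best. The exceptions were LEW/Crl animal 3, which was nearest to the substrain LEW/SsNHsd, and LEXF2C/Stm animal 3, nearest to LEXF9/Stm. These genes were picked with the same labels, which favours agreement, so the count is not an independent check of the labels. The Y-linked gene Kdm5d was between 9.32 and 9.64 in the 3 LEW/Crl animals and HXB17/Ipcv animal 2, below the next animal at 10.21, and the only LE/Stm animal had a mean over 5 liver genes of 17.74 against a median of 7.39. Without all 6 of these animals the strain test below again called 1 of the 5 genes, against 35.7% of all genes.

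Gabrb1, the beta subunit that is known from fewer receptors than Gabrb2 in adult brain, had a mean of 12.61 over the animals. The animals ran from 12.11 (HXB2/Ipcv animal 3) through a median of 12.62 to 13.04 (BXH12/Cub animal 2). Among the 69 strains with at least 2 animals, the lowest means were those of HXB2/Ipcv (12.26 from animals at 12.41 and 12.11) and HXB1/Ipcv (12.31 from 12.23, 12.26 and 12.44). The highest means were those of HXB24/Ipcv (12.88 from 12.76, 12.86 and 13.01) and MWF/Hsd (12.85 from 13.01, 12.84 and 12.71). No animal of HXB1/Ipcv or HXB2/Ipcv reached the level of any animal of HXB24/Ipcv or MWF/Hsd, and both the lowest and the highest strain were from the HXB family. These strains were picked by the same values, so their separation is not a test of a strain difference. The strain means spanned 0.62, or 1.53-fold, and the SD between animals of 1 strain was 0.16.

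Gabrb2, a beta subunit of the most abundant synaptic receptor, had a mean of 13.31. Its animals ran from 12.71 (SR/JrHsd animal 1) through 13.32 to 13.99 (BN-Lx/Cub animal 1). The lowest strains were again HXB1/Ipcv (13.02 from 12.90, 12.85 and 13.30) and HXB2/Ipcv (13.04 from 13.05 and 13.03). The highest were BN-Lx/Cub (13.66 from 13.99, 13.47 and 13.51) and BXH8/Cub (13.52 from 13.47, 13.74 and 13.34). HXB1/Ipcv had 2 low animals and 1 near the median, and BN-Lx/Cub had 1 animal far above its other animals. The strain means spanned 0.64 (1.56-fold) with a within-strain SD of 0.19.

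Gabrg1, the gamma subunit best known from a few regions such as the amygdala and hypothalamus, had a mean of 11.88. Animals lay between 11.14 (SR/JrHsd animal 1) and 12.72 (BN-Lx/Cub animal 1) with a median of 11.90. The lowest strains were HXB1/Ipcv (11.52 from 11.38, 11.44 and 11.74) and FXLE15/Stm (11.58 from 11.53 and 11.63). The highest were BN-Lx/Cub (12.26 from 12.72, 11.99 and 12.07) and MWF/Hsd (12.24 from 12.50, 12.16 and 12.06). The same SR/JrHsd animal was lowest and the same BN-Lx/Cub animal highest for Gabrb2 and Gabrg1. Gabrg1 had the widest strain range of the 5 genes (0.74, or 1.67-fold) and also the largest within-strain SD (0.23).

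Gabrg3, a less abundant gamma subunit, had a mean of 8.56. Animals lay between 8.22 (HXB5/Ipcv animal 2) and 8.85 (HXB24/Ipcv animal 3) with a median of 8.57. The lowest strains were HXB2/Ipcv (8.35 from 8.48 and 8.23) and SHR/OlaIpcv (8.36 from 8.40 and 8.32). The highest were MWF/Hsd (8.73 from 8.78, 8.67 and 8.75) and LEXF11/Stm (8.72 from 8.76 and 8.69). The 5 animals of the highest pair lay above the 4 of the lowest pair, but the pairs were picked by these values, so this is not a test. Strain means spanned 0.38 (1.30-fold) and the within-strain SD was 0.12.

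Gabrd, the delta subunit, had a mean of 11.14. Animals lay between 10.58 (HXB24/Ipcv animal 3) and 11.84 (HXB3/Ipcv animal 1) with a median of 11.13. The lowest strains were LEXF8A/Stm (10.85 from 10.65 and 11.06) and BN-Lx/Cub (10.87 from 10.99, 10.66 and 10.97). The highest were LEXF1C/Stm (11.54 from 11.47 and 11.61) and BDIX/NemOdaMcwi (11.46 from 11.29 and 11.63). BN-Lx/Cub thus stood at the top of the order for Gabrb2 and Gabrg1 and next to the bottom for Gabrd, and HXB24/Ipcv animal 3 was the highest animal for Gabrg3 and the lowest for Gabrd. Strain means spanned 0.68 (1.61-fold) and the within-strain SD was 0.23.

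**Figure D1:**
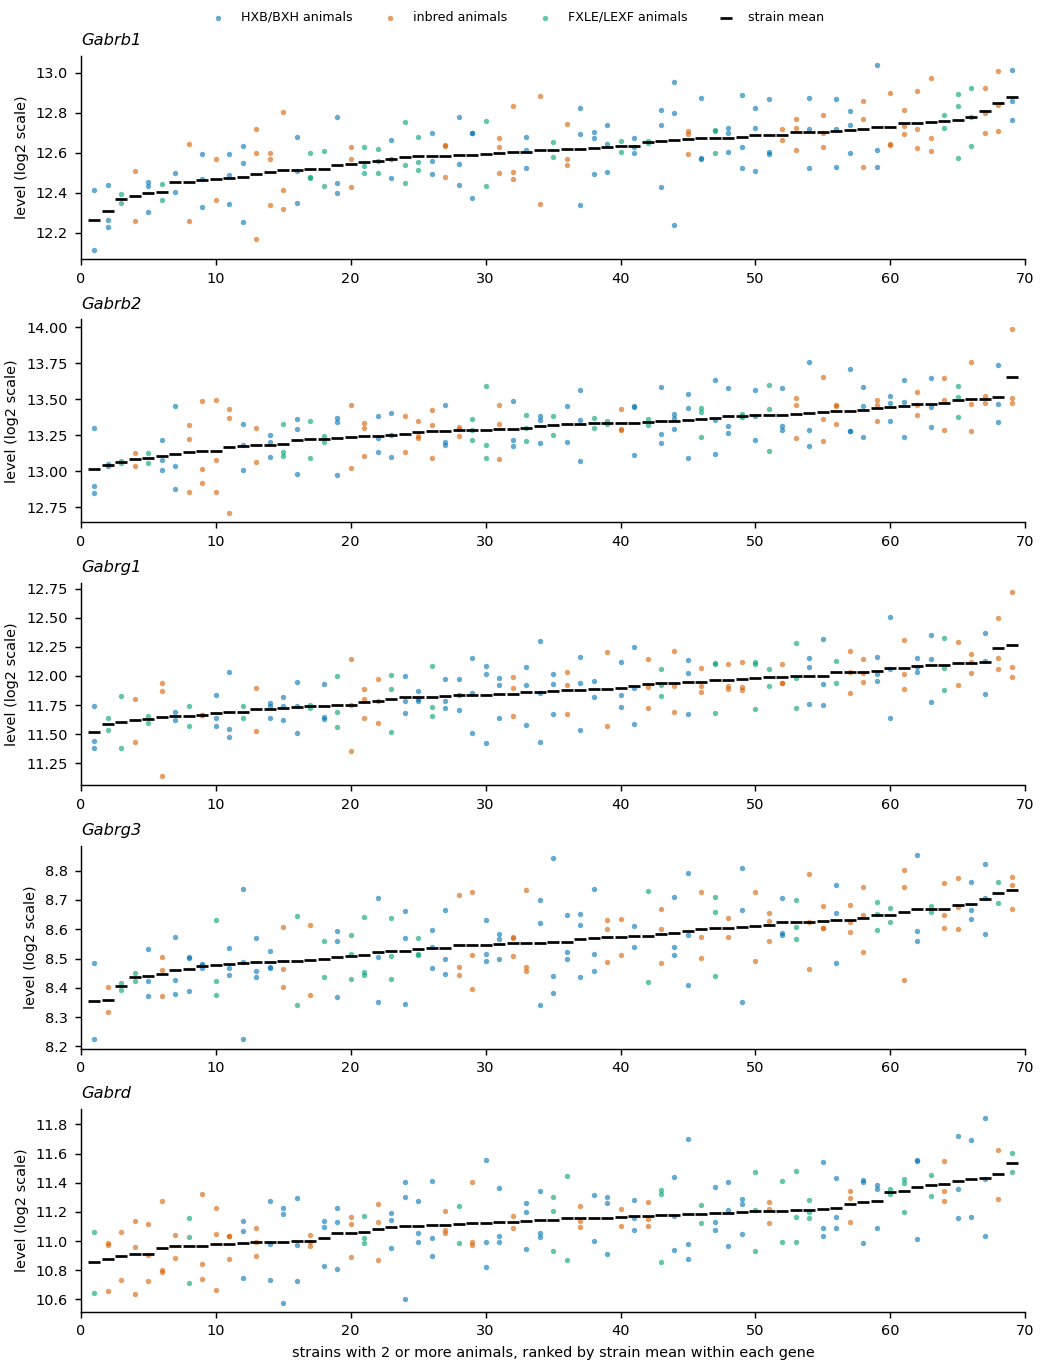
Level (log2 scale) of each gene in the 69 strains with at least 2 animals, ordered by strain mean within each gene; points are animals coloured by panel and black bars are strain means. The means rise gradually from end to end, no step between neighbouring means exceeds the within-strain SD, and BN-Lx/Cub at 13.66 stands above the next strain for Gabrb2.

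In none of the 5 orders did the gap between any of the 68 pairs of neighbouring strains exceed the within-strain SD. Only the step from BXH8/Cub to BN-Lx/Cub for Gabrb2, at 0.14, exceeded the standard error of a mean of 3 animals (0.11). With 69 means over ranges of 0.38 (Gabrg3) to 0.74 (Gabrg1), small gaps between neighbours are likely in any case. The gaps therefore do not show whether strains differ. Single ranks within the orders are not separated by these numbers of animals.

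Whether strains differ was tested with the limma F-test over 74 strains, adjusted by Benjamini-Hochberg over all genes at 0.05. Gabrb1 differed between strains and the other 4 genes did not pass, 1 of 5 genes against 37.3% of all genes. The share of the variance between animals that strain accounted for (R2) was 0.491 for Gabrb1 (adjusted p = 0.0254), 0.443 for Gabrg1 (adjusted p = 0.118) and 0.434 for Gabrb2 (adjusted p = 0.157). It was 0.406 for Gabrg3 (adjusted p = 0.333) and 0.399 for Gabrd (adjusted p = 0.326), and the median over all genes was 0.451. With so many strains of few animals R2 is well above 0 without any strain difference, and the intraclass correlation, which allows for this, was 0.190 for Gabrb1, 0.0995 for Gabrb2, 0.113 for Gabrg1, 0.0540 for Gabrg3 and 0.0424 for Gabrd against a median of 0.126. Gabrb1 was thus above the middle of all genes by strain share and the other subunits below it.

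The calls depended on the settings of the fit. With the labelled batch as a covariate in a fit over 214 libraries, Gabrb1 (adjusted p = 0.000114), Gabrb2 (0.000537) and Gabrg1 (0.0197) passed. This was 3 of 5 against 70.3% of all genes, and Gabrg3 (0.0632) and Gabrd (0.231) did not pass. With each library as a separate sample and no batch term, all but Gabrd passed, 4 of 5 against 46.8% of all genes. That fit counts repeat libraries of 1 animal as separate animals. The parts of batch and of the change from animals to libraries were not tested. The Gabrb1 call was lost without the animals numbered 1 (adjusted p = 0.420) and without those numbered 2 (0.193), where 15.9% and 14.4% of all genes passed and the R2 of Gabrb1 was 0.595 and 0.634. Without those numbered 3, Gabrb2 (0.0150) and Gabrg1 (0.0420) passed beside it, against 29.1% of all genes. In an earlier release of the data, quantified on Ensembl models in 131 animals of 45 strains, Gabrb1, Gabrg1, Gabrg3 and Gabrd passed, 4 of 5 against 62.8% of all genes, and Gabrb2 did not. In the table of reconstructed transcripts 0 of 5 genes passed, against 18.6% of all features, with Gabrb1 at an R2 of 0.484 (adjusted p = 0.0998). Strain means of the 5 genes in the earlier release correlated with those used here at r between 0.512 and 0.720 over 44 strains.

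The strain effect was also tested within each panel. In the HXB/BXH strains 0 of 5 genes passed against 19.1% of all genes, and Gabrb1 had the smallest adjusted p (R2 0.446, adjusted p = 0.154). In the classic inbred strains 0 of 5 passed against 19.3%, and Gabrd came nearest (R2 0.541, adjusted p = 0.0719). In the FXLE/LEXF strains 0 of 5 passed against 4.61%, with Gabrb1 nearest (R2 0.655, adjusted p = 0.165). With batch as a covariate Gabrb1 passed in the HXB/BXH strains (adjusted p = 0.0291) and 3 genes passed in the inbred strains, Gabrb1 (0.00195), Gabrb2 (0.00347) and Gabrg1 (0.0229). Of all genes, 32.1% and 47% passed under these fits. Without inbred animals numbered 3 Gabrb1 passed there (0.0399), against 11.5% of all genes. At an unadjusted p under 0.05 stood 0 genes in HXB/BXH against 32.6% of all genes, 1 in the inbred strains (Gabrd) against 31.3% and 1 in FXLE/LEXF (Gabrb1) against 22.1%. These counts do not test whether a strain effect differs between panels.

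The panels themselves had close levels. The mean of strain means was 12.60 (SD 0.12, n = 19 strains) in FXLE/LEXF, 12.59 (SD 0.13, n = 30) in HXB/BXH and 12.63 (SD 0.14, n = 25) in the inbred strains for Gabrb1. Gabrg1 had the widest difference, with 11.82 (SD 0.17), 11.86 (SD 0.14) and 11.94 (SD 0.20) in the same order. The limma F-test over the 3 panels on strain means passed for 0 of 5 genes and for 0% of the 20859 genes, of which 1224 had an unadjusted p under 0.05, and no other tool was run. Each recombinant panel shared batches with inbred strains but not with the other recombinant panel, and the panels were not tested with batch as a covariate.

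Repeat libraries show how much of this spread can arise without any difference in animal. Of 14 libraries that the labels give for SHR/OlaIpcv animal 1, the table used here holds 12, each from another batch, and those of batches 7 and 14 were not used. It holds all 6 libraries of SHR/OlaIpcv animal 4. For Gabrb1 the 12 libraries ran from 12.13 through a median of 12.48 to 13.10, a range of 0.97 within 1 animal against 0.92 over the means of all 197 animals. The library of batch 11 set this range, and without it the other 11 spanned 0.60. For Gabrb2 they ran from 12.77 to 13.60 (range 0.83), for Gabrg1 from 11.29 to 12.01 (0.72 against 1.59) and for Gabrd from 10.63 to 11.55 (0.92 against 1.27). The library of batch 11 was also the highest for Gabrb2 and the lowest for Gabrd, whose ranges without it were 0.55 and 0.57, and that of Gabrg1 stayed at 0.72. Gabrg3 was steadier, from 8.25 to 8.55 (0.30 against 0.63). The SD among the 12 libraries was 0.25 for Gabrb1, 0.21 for Gabrb2, 0.21 for Gabrg1, 0.09 for Gabrg3 and 0.24 for Gabrd, against a median of 0.16 over all genes. Without the library of batch 11 these SDs were 0.17, 0.16, 0.19, 0.09 and 0.18. The 6 libraries of SHR/OlaIpcv animal 4 spanned 0.51 for Gabrb1, 0.66 for Gabrb2, 0.81 for Gabrg1, 0.34 for Gabrg3 and 0.45 for Gabrd. Without the library of batch 15, the highest of the 6 for the beta and gamma subunits, they spanned 0.23 for Gabrb1, 0.35 for Gabrb2 and 0.45 for Gabrg1. These libraries were left out after the values were seen.

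**Figure D2:**
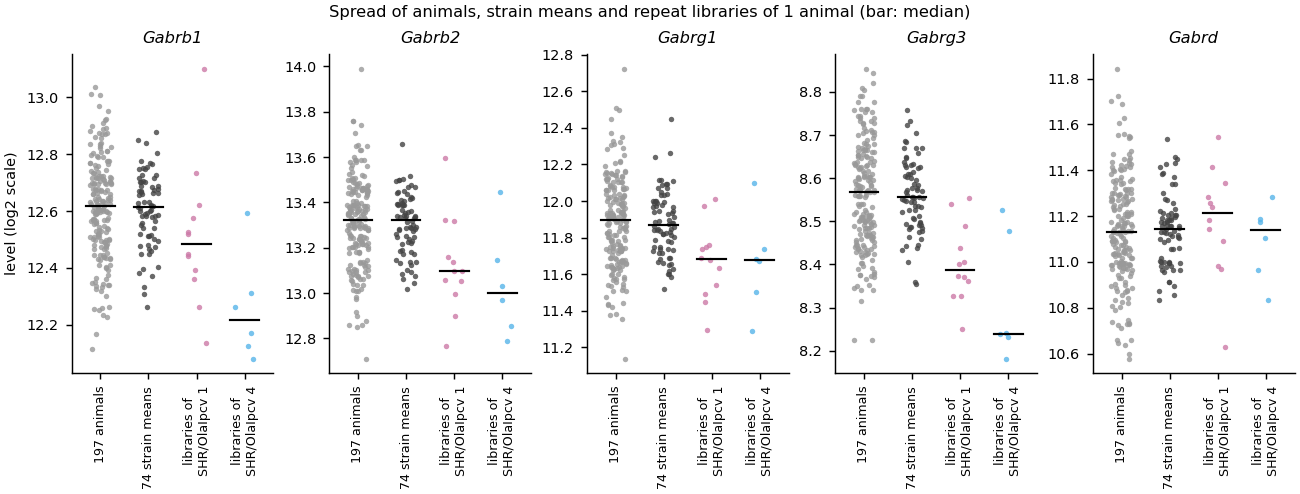
Level (log2 scale) of each gene in the 197 animals, the 74 strain means, the 12 libraries of SHR/OlaIpcv animal 1 and the 6 libraries of SHR/OlaIpcv animal 4; points are single values and bars are medians. For Gabrb1 the 12 libraries of SHR/OlaIpcv animal 1 span 0.97, of which 0.60 remains without the highest library (batch 11), against 0.92 for all animals, and for Gabrg3 they span 0.30.

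BN-Lx/Cub and SHR/OlaIpcv are the parents of the HXB/BXH strains, and the comparison asks which subunits differ between them. The SHR/OlaIpcv values are averages over 12 libraries (animal 1) and 6 libraries (animal 4), and the fit weighted all animals alike. Gabrb2 was higher in BN-Lx/Cub, with animals at 13.99, 13.47 and 13.51 against 13.12 and 13.04. The difference was 0.57 (SE 0.17, 95% interval 0.25 to 0.90, 1.49-fold, limma adjusted p = 0.0267), and Gabrb2 was the only one of the 5 genes called, against 4.51% of all genes. The other beta and gamma subunits had values in the same direction that did not pass. Gabrg1 differed by 0.60 (SE 0.21, adjusted p = 0.0809) with animals at 12.72, 11.99 and 12.07 against 11.67 and 11.67. Gabrb1 differed by 0.37 (SE 0.14, adjusted p = 0.123), with animals at 12.97, 12.67 and 12.61 against 12.51 and 12.26, and Gabrg3 by 0.28 (SE 0.11, adjusted p = 0.136), with 8.65, 8.74 and 8.52 against 8.40 and 8.32. Gabrd had a difference of -0.26 (SE 0.21, 95% interval -0.66 to 0.14, adjusted p = 0.522), with animals at 10.99, 10.66 and 10.97 against 11.17 and 11.09.

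The Gabrb2 call between the parents rested on few animals. It was lost without BN-Lx/Cub animal 1 (difference 0.41, adjusted p = 0.408), SHR/OlaIpcv animal 1 (0.62, 0.147) or SHR/OlaIpcv animal 4 (0.53, 0.317), and leaving out either SHR/OlaIpcv animal leaves 1 for which the pooled spread is assumed. Of all genes, 1.78%, 1.57% and 0.968% passed without these animals. Under the batch covariate Gabrb2 (0.55, adjusted p = 0.00235) and Gabrg1 (0.56, 0.0212) passed, against 16% of all genes. The difference of Gabrb2 was 0.07 (adjusted p = 0.842) in the earlier Ensembl release, 0.38 (0.0814) in a later Ensembl release and 0.36 (0.509) in the table of reconstructed transcripts, where 4.63%, 2.67% and 1.67% of all features passed. In the earlier release the value of Gabrb1 had the other sign (-0.06), Gabrg1 was at 0.14, Gabrg3 at 0.16 and Gabrd at -0.05. Gabrb1 was at 0.24 without SHR/OlaIpcv animal 4 and at 0.23 with batch as a covariate, and Gabrd was at -0.15 without BN-Lx/Cub animal 2. Gabrg1 was at 0.37 (0.683) without BN-Lx/Cub animal 1, and it passed without BN-Lx/Cub animal 2 (0.73, 0.0309), where 8.52% of all genes passed. With the component described further on as a covariate the Gabrb2 call was kept at a smaller difference (0.31, 0.0249), against 4.65% of all genes, and Gabrg1 was at 0.27 (0.187), Gabrb1 at 0.18 (0.411) and Gabrd at -0.11 (0.876). BN-Lx/Cub animal 1 also had the lowest mean of the dentate granule cell markers of all animals (6.70 against a median of 7.24). The part of what sets this animal's markers apart in the Gabrb2 difference was not tested.

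Most HXB/BXH strain means lay between those of the parents for the beta and gamma subunits. BN-Lx/Cub was the highest ranked strain for Gabrb2 and Gabrg1, and SHR/OlaIpcv was next to lowest for Gabrg3. The FXLE/LEXF strain means, from other parents, ran from 13.06 to 13.49 for Gabrb2, against BN-Lx/Cub at 13.66 and SHR/OlaIpcv at 13.08. Strains of any descent can thus lie between these parents, and the counts are not a test of inheritance. For Gabrb1 27 of 30 strains lay between, 2 below and 1 above, for Gabrb2 28 between and 2 below, for Gabrg1 28 between and 2 below, and for Gabrg3 26 between, 1 below and 3 above. Gabrd had 12 strains between the parents and 18 above the SHR/OlaIpcv mean of 11.13, which was near the family median of 11.16. In the FXLE/LEXF family 15 of 19 strains lay between F344/Stm (12.75, n = 3) and LE/Stm (12.33, n = 1) for Gabrb1, 16 for Gabrb2 and 13 for Gabrd. Between these parents lay 5 strains for Gabrg1 (11.97 and 11.78) and 1 for Gabrg3, whose parents were close (8.57 and 8.56). The only LE/Stm animal is the one with the high liver genes, so these counts for FXLE/LEXF rest on a library that stands apart.

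**Figure D3:**
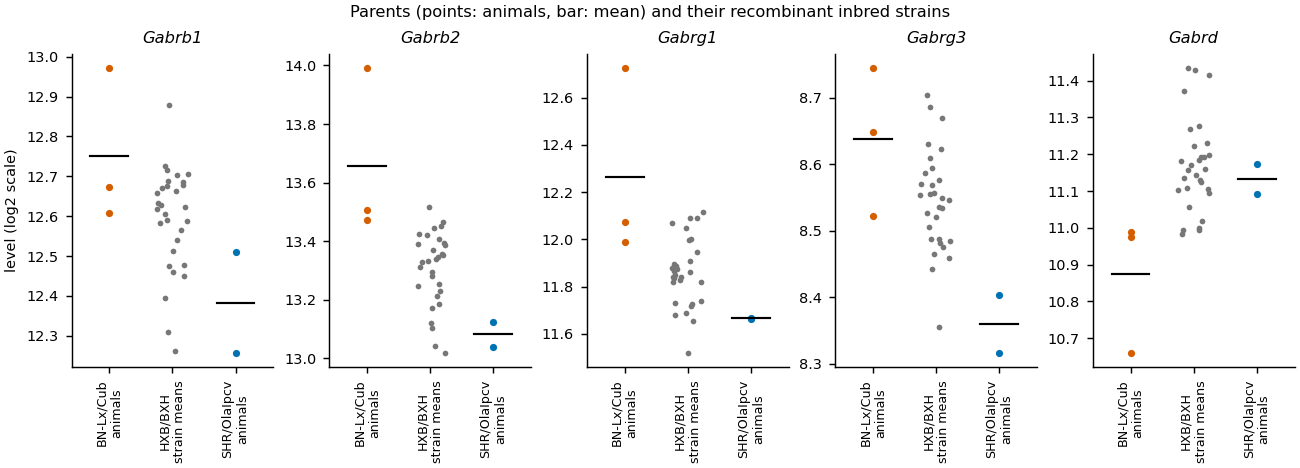
Level (log2 scale) of each gene in the animals of BN-Lx/Cub and SHR/OlaIpcv (points, with the mean as a bar) and in the 30 HXB/BXH strain means between them. For Gabrb2 28 of 30 strains lie between the parents' means of 13.66 and 13.08, and for Gabrd 18 lie above the SHR/OlaIpcv mean of 11.13.

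Hypertensive SHR/OlaIpcv was also set against WKY/NCrl, a normotensive strain of the same Wistar Kyoto descent. This comparison shares its SHR/OlaIpcv animals with that between the parents. Their values are again averages over 12 and 6 libraries, whereas those of WKY/NCrl come from single libraries. For Gabrg1 the libraries ran from 11.29 to 12.01 in SHR/OlaIpcv animal 1 and from 11.29 to 12.10 in animal 4. The closeness of the SHR/OlaIpcv averages is therefore not that of single libraries. By limma 0 of 5 genes passed, against 0.825% of all genes, and 3 had an unadjusted p under 0.05, against 8.49% of all genes. Gabrg1 had the largest difference, -0.45 in SHR/OlaIpcv (SE 0.21, 95% interval -0.86 to -0.04, limma adjusted p = 0.522), with SHR/OlaIpcv animals at 11.67 and 11.67 and WKY/NCrl animals at 12.03, 12.12 and 12.19. Gabrb1 differed by -0.32 (SE 0.14, adjusted p = 0.485), with 12.51 and 12.26 against 12.77, 12.72 and 12.61, and Gabrg3 by -0.22 (SE 0.11, adjusted p = 0.572). Gabrb2 and Gabrd differed by -0.17 (SE 0.17) and 0.22 (SE 0.21). With batch as a covariate 0 genes passed against 20.8% of all genes, the values of Gabrb1 and Gabrb2 changed direction (0.04 and 0.22) and that of Gabrg1 was -0.22 (adjusted p = 0.446). Without SHR/OlaIpcv animal 4 Gabrb1 was at -0.19. Gabrd was at 0.33 without WKY/NCrl animal 1 and at 0.08 without WKY/NCrl animal 2. In the earlier Ensembl release 2 genes passed, Gabrg3 (-0.30, adjusted p = 0.016) and Gabrd (0.57, 0.0103), against 22.6% of all genes in that table, while Gabrb2 was at 0.13 and Gabrb1 at -0.14. In the table of reconstructed transcripts Gabrb2 was at -0.0012 and Gabrg3 at -0.04. With the component described further on as a covariate Gabrg1 passed (-0.45, 0.0104), against 2.1%.

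The Dahl strains SS/JrHsd and SR/JrHsd were bred for and against salt-sensitive hypertension. By limma 0 of 5 genes passed, against 0.988% of all genes, and 0 had an unadjusted p under 0.05, against 10.1% of all genes. Gabrd differed by -0.23 in SS/JrHsd (SE 0.18, 95% interval -0.59 to 0.13, limma adjusted p = 0.823), with animals at 11.14, 11.09 and 11.24 against 11.55, 11.34 and 11.28. Gabrb1 differed by 0.01 (SE 0.13, 95% interval -0.24 to 0.26), Gabrb2 by -0.04 (SE 0.15), Gabrg1 by 0.20 (SE 0.19) and Gabrg3 by 0.10 (SE 0.10). SR/JrHsd animal 1 was low for Gabrb1 (12.17), Gabrb2 (12.71) and Gabrg1 (11.14) against 12.72 and 12.60, 13.37 and 13.43, and 11.94 and 11.87 in the other animals of its strain. Without it the difference was -0.05 for Gabrg1, -0.27 for Gabrb2, -0.15 for Gabrb1, -0.15 for Gabrd and 0.06 for Gabrg3. Gabrg3 was at 0.01 without SS/JrHsd animal 2 and at 0.15 without SS/JrHsd animal 3. Gabrg1 was at 0.13 without SS/JrHsd animal 2, at 0.34 without SR/JrHsd animal 2 and at 0.31 without SR/JrHsd animal 3. The sign for Gabrb2 and Gabrb1 also turned when some other single animals were left out (up to 0.10 without SS/JrHsd animal 1 for Gabrb2, and -0.04 and -0.02 without SS/JrHsd animals 2 and 3 for Gabrb1). SR/JrHsd animal 1 also had the highest mean of striatal markers of all animals (10.87 against a median of 10.54), and the part of this in the values of that animal was not tested.

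WAG/RijCrl, a strain known as a model of absence epilepsy, was set against 7 classic inbred strains (21 animals) sequenced in batches 15 to 17. Batches were not balanced, since 11 of the 21 animals were in batch 17, which held no WAG/RijCrl animal. By limma 0 of 5 genes passed, against 0.743% of all genes, and 0 had an unadjusted p under 0.05, against 12.2% of all genes. Differences were -0.24 for Gabrg1 (SE 0.14, 95% interval -0.52 to 0.04), -0.15 for Gabrb2 (SE 0.11), -0.01 for Gabrb1 (SE 0.10), 0.07 for Gabrg3 (SE 0.08) and 0.06 for Gabrd (SE 0.14), with limma adjusted p between 0.484 and 0.983. With batch as a covariate Gabrg1 differed by -0.35 (adjusted p = 0.217), Gabrb2 by -0.24 (0.261), Gabrb1 by -0.07, Gabrg3 by 0.03 and Gabrd by 0.14. Gabrg1 and Gabrb2 had an unadjusted p under 0.05 in that fit, against 18.2% of all genes, and 0 of 5 genes passed, against 1.29%. With the component described further on as a covariate Gabrg1 was at -0.12 and Gabrb2 at -0.06. Without WAG/RijCrl animal 2 the values of Gabrb1 and Gabrd changed sign (0.03 and -0.08), and Gabrb2 was at -0.05. Without WAG/RijCrl animal 1 Gabrb2 was at -0.22, Gabrg3 at 0.03, Gabrb1 at -0.05 and Gabrd at 0.14, and without animal 3 Gabrg3 was at 0.11, Gabrb1 at -0.0038 and Gabrd at 0.13. Gabrb2 differed by -0.0035 in the later Ensembl release and by -0.0029 in the table of reconstructed transcripts, and in the latter Gabrg1 differed by -0.12, Gabrb1 by 0.12 and Gabrd by -0.02. WAG/RijCrl animals were at 12.79, 12.63 and 12.70 for Gabrb1 and at 10.97, 11.41 and 10.99 for Gabrd.

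The subunits were next compared with each other across strains. In the table used here the strain means of both beta subunits and Gabrg1 rose and fell together, Gabrg3 followed Gabrb1 and had a lower r with Gabrb2, and Gabrd ran against all 4. The relations of Gabrb2 with Gabrb1, Gabrg1 and Gabrg3 were near 0 in the earlier Ensembl release, and those of Gabrd with Gabrb1, Gabrb2 and Gabrg1 did not pass under several other settings (below). Over 74 strain means Pearson's r was 0.734 between Gabrb1 and Gabrb2 (Spearman's rho 0.683), 0.719 between Gabrb2 and Gabrg1 (rho 0.685) and 0.611 between Gabrb1 and Gabrg1 (rho 0.550), each with the smallest p that 100000 two-sided permutations can give (1e-05) and an adjusted p of 2.5e-05 over the 10 pairs. Gabrg3 had r = 0.546 with Gabrb1 (rho 0.494, adjusted p = 2.5e-05) and 0.384 with Gabrb2 (rho 0.329, adjusted p = 0.00126). With Gabrg1 it had r = 0.226 (rho 0.234), which did not pass (permutation adjusted p = 0.0539). Gabrd had r = -0.398 with Gabrb1 (rho -0.344, permutation adjusted p = 0.0008), -0.283 with Gabrb2 (rho -0.209, 0.0176), -0.332 with Gabrg1 (rho -0.349, 0.00496) and -0.400 with Gabrg3 (rho -0.378, 0.0008). In all, 9 of 10 pairs passed by Pearson's r and 8 by Spearman's rho. How many other gene pairs would pass was not counted. For the pairs that passed by Pearson's r, between 0.484% (Gabrb1 and Gabrb2) and 25.5% (Gabrb2 and Gabrd) of all genes had an r with the first gene as far from 0 in the same direction. Without the pair of strains farthest from the median of the first gene, r stayed between 0.571 and 0.692 for the 3 pairs of Gabrb1, Gabrb2 and Gabrg1 and between -0.256 and -0.382 for those with Gabrd.

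The relations had the same sign within each panel. Gabrb1 and Gabrb2 had r = 0.590 in FXLE/LEXF (n = 19 strains), 0.732 in HXB/BXH (n = 30) and 0.813 in the inbred strains (n = 25). Gabrb1 and Gabrg1 had 0.212, 0.726 and 0.742, and Gabrb2 and Gabrg1 0.708, 0.760 and 0.726. Gabrd and Gabrb1 had -0.359, -0.511 and -0.315. With sequencing batch taken out of the strain means, 8 of 10 pairs passed. The 3 pairs of Gabrb1, Gabrb2 and Gabrg1 then had r between 0.606 and 0.783, and Gabrd had -0.504 with Gabrg3 and -0.256 with Gabrb1 (permutation adjusted p = 0.0398). Gabrd no longer ran against Gabrb2 (r = 0.029, adjusted p = 0.809) or Gabrg1 (r = -0.047, adjusted p = 0.768). In the table of reconstructed transcripts Gabrd had r = 0.006 with Gabrb1 (permutation adjusted p = 0.959), 0.096 with Gabrb2 (0.522) and -0.062 with Gabrg1 (0.669), and passed with Gabrg3 (-0.274, 0.026).

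The relations were of similar size among animals of 1 strain, where no strain difference is present. The deviations of 192 animals from their strain means had r = 0.747 for Gabrb1 and Gabrb2, 0.836 for Gabrb2 and Gabrg1, 0.720 for Gabrb1 and Gabrg1, and -0.464 for Gabrb1 and Gabrd. Deviations within a strain sum to 0, so animals of 1 strain are not independent, and the counts that follow were not made for other genes. In 134 of the 192 animals Gabrb1, Gabrb2 and Gabrg1 lay on one side of their strain means, and in 97 of those Gabrd lay on the other. They were also present among the 12 libraries of SHR/OlaIpcv animal 1, with r = 0.892 for Gabrb1 and Gabrb2, 0.810 for Gabrb2 and Gabrg1, 0.752 for Gabrb1 and Gabrg1, and -0.692 for Gabrb1 and Gabrd, where the animal is the same in each. Without the library of batch 11 these values were 0.780, 0.766, 0.693 and -0.327, so the relation with Gabrd rested in large part on that library. Among the 6 libraries of SHR/OlaIpcv animal 4 the values in the same order were 0.969, 0.723, 0.654 and -0.748, and without the library of batch 15 they were 0.890, 0.165, -0.168 and -0.233, so only that between Gabrb1 and Gabrb2 of these 4 stayed high over the other 5 libraries. BXH9/Cub shows the pattern in 1 strain, since animal 2 deviated by -0.43, -0.23 and -0.43 for Gabrb1, Gabrb2 and Gabrg1 and by 0.30 for Gabrd, and animal 3 by 0.29, 0.35 and 0.44 and by -0.50. BN-Lx/Cub animal 1 did not show it for Gabrd, with deviations of 0.22, 0.33 and 0.46 and of 0.11 for Gabrd.

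The subunits were not alone in this. The first principal component of the within-strain deviations of 10424 genes above the median level, the 5 subunits left out, held 37.2% of the variance. Its r with the within-strain deviations was 0.727 for Gabrb1, 0.851 for Gabrb2, 0.852 for Gabrg1, 0.347 for Gabrg3 and -0.401 for Gabrd. With this component taken out, 4 of 10 pairs passed and r fell to 0.499 between Gabrb1 and Gabrb2, 0.319 between Gabrb2 and Gabrg1 and 0.259 between Gabrb1 and Gabrg1 (adjusted p = 0.0518), and that between Gabrb1 and Gabrd was -0.147. The relations of Gabrd with Gabrb2 (0.146) and Gabrg1 (0.044) and that of Gabrg1 with Gabrg3 (-0.082) changed sign and did not pass. As a covariate in the strain test it gave 3 of 5 genes (Gabrb1, Gabrb2 and Gabrg1, limma adjusted p 0.00129, 0.00337 and 0.00146) against 49.1% of all genes. Without the animals numbered 1, 5 pairs passed, and r between Gabrb1 and Gabrd was -0.248 (adjusted p = 0.0566). In the earlier Ensembl release 6 pairs passed, and r was 0.131 between Gabrb1 and Gabrb2, -0.052 between Gabrb2 and Gabrg1 and 0.046 between Gabrb2 and Gabrg3. Gabrd had r = 0.275 with Gabrb2 there (permutation adjusted p = 0.0965), and -0.639 with Gabrb1, -0.598 with Gabrg1 and -0.740 with Gabrg3. What the component stands for was not tested.

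**Figure D4:**
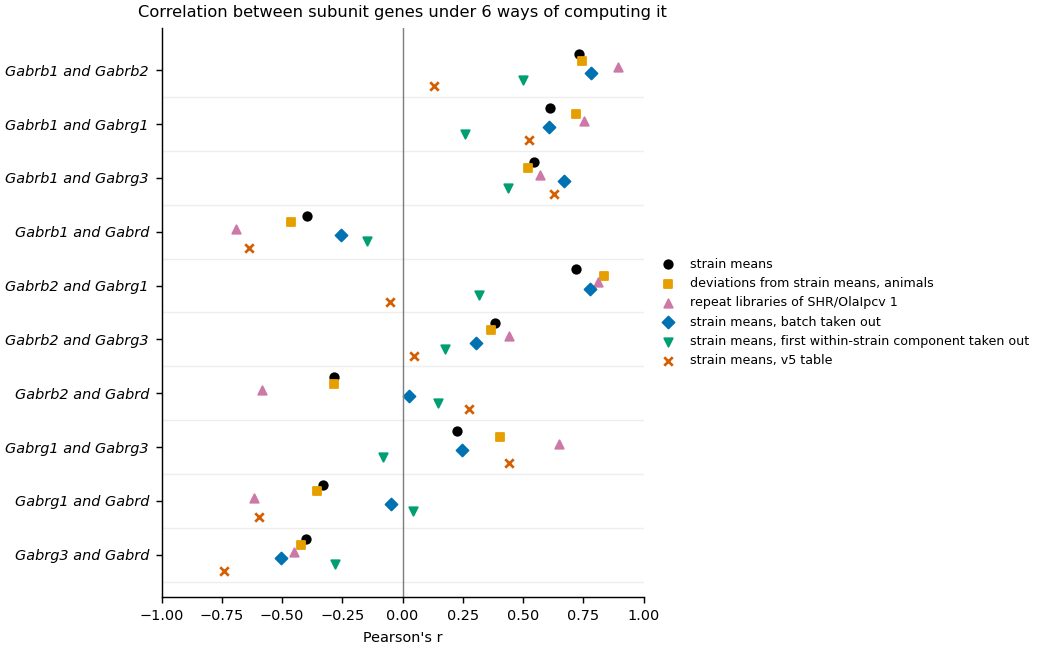
Pearson's r (horizontal axis, no unit) for the 10 pairs of genes, computed 6 ways: over strain means, over deviations of animals from strain means, over the 12 libraries of SHR/OlaIpcv animal 1, over strain means with batch or with the first within-strain component taken out, and over strain means of the earlier (v5) release. For Gabrb1 and Gabrb2 the values are 0.734 over strain means, 0.892 over libraries of 1 animal and 0.131 in the earlier release.

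Many genes had patterns like those of the subunits. The genes most like Gabrb1 over 74 strain means, among 10428 genes above the median level, were Cadm2 (r = 0.882), a synaptic adhesion molecule, Nexmif (0.870), known from X-linked intellectual disability, and Gabra2 (0.851), an alpha subunit. Gabrb2 was most like Rb1cc1 (0.90), which starts autophagy, and Thoc2 (0.899), of the mRNA export complex. Those most like Gabrg1 were Steep1 (0.875), Bet1 (0.873), a vesicle transport protein, and Manea (0.869), a glycan-trimming enzyme. Gabrg3 had lower values, with Csrnp3 (0.622), Celf2 (0.621), a splicing regulator, and Kcna4 (0.617), a potassium channel. Gabrd stood with Tesc (0.854), a calcium-binding protein, Mmp24 (0.770), a membrane metalloproteinase, and Shf (0.770). Such values are a description over strains that share batches, and the subunits' own relations are read against the same background. Of all genes, 0.484% had an r with Gabrb1 at least as high as that of Gabrb2, 3.16% had one at least as high as that of Gabrg1, and 3.63% had an r with Gabrb2 at least as high as that of Gabrg1. On the negative side, 2.42% of genes had an r with Gabrg3 as low as that of Gabrd, 11.9% one with Gabrb1 and 25.5% one with Gabrb2.

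Some alpha subunits were set beside the genes in the same way. Gabrb2 had r = 0.830 with Gabra3, 0.749 with Gabra2, 0.626 with Gabra4, 0.549 with Gabra6 and 0.372 with Gabra5. Gabrb1 had 0.851 with Gabra2, 0.835 with Gabra3, 0.614 with Gabra5, 0.487 with Gabra4 and 0.206 with Gabra6. For Gabrg1 the values of these subunits lay between 0.354 (Gabra4) and 0.695 (Gabra3). Gabrd had 0.240 with Gabra6, the alpha subunit of cerebellar granule cells, and -0.313 with Gabra4, the alpha subunit with which it is known to pair in dentate gyrus and thalamus. It had -0.427 with Gabra2, -0.392 with Gabra3 and -0.361 with Gabra5. Ranked by r among the genes above the median level, Gabra2 and Gabra3 stood at places 3 and 7 for Gabrb1. For Gabrb2, Gabra3 stood at 159, Gabra2 at 554 and Gabra4 at 1357. Gabra3 stood at 617 for Gabrg1 and Gabra6 at 3251 for Gabrd. Many other genes thus had higher values with Gabrb2, Gabrg1 and Gabrd than these alpha subunits.

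The other genes of GABA signalling give the setting. Of 36 measured, 13 differed between strains against 37.3% of all genes, a share near the background, and 31 did with batch as a covariate against 70.3%. Their median R2 was 0.470, and the members below are a description. Among the alpha subunits Gabra5 passed (R2 0.529, limma adjusted p = 0.00462), and of 5 other pentameric subunits Gabrq and Gabrr2 did. Of 3 genes of synthesis and vesicle loading, the GABA-making enzymes Gad1 (R2 0.570) and Gad2 (0.535) passed. Of 5 genes of uptake and breakdown 3 did, among them the transporter Slc6a13 (R2 0.643) and the breakdown enzyme Abat (0.595). Both chloride transporters, Slc12a2 and Slc12a5, passed, as did 2 of 12 anchoring and trafficking genes (Plcl1, R2 0.570, and Shisa7, 0.495), 1 of 2 metabotropic receptor genes (Gabbr2) and 0 of 1 endogenous modulator (Dbi, R2 0.471, adjusted p = 0.0534). The lowest R2 of the list was that of the vesicular transporter Slc32a1 (0.370), so roles were mixed along the order, and no test between roles was run.

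At the level of transcripts, 13.9% of 45991 passed the limma strain test. Of the 8 transcripts of these genes 1 did, the only one of Gabrb1 (R2 0.587, adjusted p = 0.00203), lowest in HXB2/Ipcv (9.60) and highest in HXB25/Ipcv (10.07). Gabrb2 had 3 transcripts. XM_039085275.1 (mean 12.65) followed the gene (r = 0.894 over strain means) and was highest in BN-Lx/Cub (13.37). NM_012957.2 (mean 9.39) had r = -0.562 with it and was lowest in BN-Lx/Cub (8.08). The third, XM_006246127.3 (mean 10.86), had r = 0.008 with the gene. None of the 3 passed (limma adjusted p = 0.671, 0.616 and 0.315 in this order), and since overlapping transcripts share reads, the split between them is an estimate. Of the transcripts of Gabrg3, NM_024370.3 (mean 8.11) followed the gene (r = 0.851) and XM_017589765.2 (mean 6.46) less so (0.392). The single transcripts of Gabrg1 and Gabrd had r = 0.882 and 0.996 with their genes. That of Gabrb1 (mean 9.84), the gene called for a strain effect, had the lower value of 0.733.

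In whole brain, fewer cells of a type and less RNA per cell cannot be told apart, so cell type markers are given beside the genes. Gabrd moved with the Purkinje cell list (3 of 4 markers measured), with r = 0.577 over strain means and 0.644 within strains, and with the cerebellar granule cell list (r = 0.344 and 0.438). It ran against the thalamus list (r = -0.351 and -0.348). With the dentate granule cell list Gabrd had r = 0.087 and -0.083, and with the striatum list 0.354 and 0.007. The Purkinje list ran from 11.77 to 13.21 and the granule cell list from 9.95 to 11.13 over animals. LEXF8A/Stm animal 1, at 10.65 for Gabrd, was the lowest animal in both lists, and BDIX/NemOdaMcwi animal 2, at 11.63, was the highest in the Purkinje list. HXB3/Ipcv animal 1, the highest for Gabrd, was lowest in the thalamus (9.41) and hypothalamus (5.49) lists. Gabrg1 moved with the oligodendrocyte list (r = 0.428 over strains, 0.537 within) and the microglia list (0.425 and 0.430). It ran against the neuron list (-0.366 and -0.259), the striatum list (-0.357 and -0.426) and the dentate granule cell list (-0.251 and -0.388). Gabrb2 had 0.359 and 0.390 with the oligodendrocyte list and -0.137 and -0.343 with the striatum list. Gabrg3 had r between -0.405 (pituitary, of which only Pomc was measured) and 0.117 (neurons) over strains. Gabrb1 had r between -0.41 and 0.20 over strains with all 17 lists, and none of its values is as large as that of Gabrd with the Purkinje list. The part of these cell types, or of where the brain was cut, in the strain differences was not tested.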

How the data were processed

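Ribosomal RNA depleted total RNA libraries were made with a stranded kit. Genes were analysed as deposited by the authors in the v7.1 RefSeq gene table, with values on a log2 scale and no counts, so depth is unknown and no interval from counts can be given. For an earlier release the study's methods describe trimming, alignment to strain-specific genomes, RSEM estimates, removal of 1 factor of unwanted variation and a regularised log transformation, which shrinks differences of low genes. The submitters' processing notes list cutadapt 1.9.1, Bowtie2 2.3.4.3 or 2.4.5, HISAT2 2.1.0 or 2.2.1, StringTie 1.3.5 or 2.2.1, RSEM 1.3.1 or 1.3.3 and DESeq2, with no role or release, and which of them made v7.1 is not given in the sources used here.

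Samples were grouped by the labelled strain. Libraries of 1 animal were averaged, 73 spike-ins were dropped, and 4 columns over all tables matched no labelled sample and were not used. Column names and labels differ in animal number for FXLE12/Stm and in batch for a LEXF9/Stm library, and the labels were used. Strain effects and contrasts were fitted with limma 3.58.1 (R 4.3.3) over all animals with a Benjamini-Hochberg threshold of 0.05. The fit with batch used libraries, with the correlation between libraries of an animal estimated (0.212). Correlations of strain means were tested with 100000 permutations. The procedure was tested on simulated data. All 5 genes are named, with the 2 highest and 2 lowest strains with at least 2 animals and the 3 genes most like each by r, of which 1 is not reported here. The genes, lists and tests were chosen with earlier results of these data known. Animals of a strain are labelled as biological replicates. Promoters came from RefSeq (GRCr8), and all 5 genes matched. The alternatives tried were batch, animal number, repeat libraries, low genes, scaling, left-out animals and other deposited tables. The component covariate, the left-out repeat libraries and the removal of all animals against their labels were added after seeing the data.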

Additional observations from a re-analysis of the deposited data

How the results depend on the processing

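The number of the 5 genes called for a strain effect, 1 as reported, was 3 with batch as a covariate from the batch field (70.3% of all genes) or the title (62%), 3 with the first within-strain component as a covariate (49.1%), 4 with each library as a separate sample (46.8%), 4 in the v5 Ensembl table (62.8%) and 0 in the v7.1 table of reconstructed transcripts (18.6%). Leaving out animals by number gave 0 to 3 calls, where 14.4% to 35.2% of all genes passed. Between BN-Lx/Cub and SHR/OlaIpcv, 1 gene as reported, the count was 2 with batch as a covariate and 0 in the v5, v6 and reconstructed tables (4.63%, 2.67% and 1.67% of all features), and leaving out 1 animal at a time gave 0 to 2 (0.968% to 8.52%). Between SHR/OlaIpcv and WKY/NCrl it was 1 with the component and 2 in the v5 table, against 0. Within HXB/BXH batch gave 1 call, within the inbred strains 3, and leaving out inbred animals by number 0 to 1, against 0 in each. Of the 10 pairs, 9 as reported, 4 passed with the component taken out, and leaving out animals by number gave 5 to 10, with no count of other gene pairs. The cause of these changes was not tested. The other 88 recomputed counts stayed within 1.5 times the reported ones. The WAG/RijCrl comparison was not run in the v5 table, whose columns used here hold no animal of that strain.

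With the animal number as a replicate block, 0 genes passed between BN-Lx/Cub and SHR/OlaIpcv (Gabrb2 0.46, limma adjusted p = 0.211), and the strain effect again called 1 gene (Gabrb1, adjusted p = 0.0218, against 38.3% of all genes). Of all genes, 1.97% passed between these strains under the block. The labels tie no animals by number, and deviations of same-numbered animals of different strains had a mean correlation of 0.0232 against -0.0112 for others. Depth cannot be assessed, and strains of 1 to 3 animals limit every order given. The spread between repeat libraries limits comparisons of single strains.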

Other observations

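HXB1/Ipcv was the lowest strain for Gabrb2 and Gabrg1 and next to lowest for Gabrb1, and HXB2/Ipcv was lowest for Gabrb1 and Gabrg3. MWF/Hsd was highest for Gabrg3 and next to highest for Gabrb1 and Gabrg1. Animals numbered 3 lay above their strain means for Gabrb2 (mean deviation 0.07, SD 0.16, n = 61) and Gabrg1 (0.06, SD 0.20), and animals numbered 1 below them (Gabrb2 -0.03, SD 0.16, n = 65). The cause was not tested. The levels of Gabrd in the v6 Ensembl table tracked those used here at r = 0.996 over 58 strain means, and those of Gabrg3 in the table of reconstructed transcripts at r = 0.607 over 74.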
